A study of Mus musculus with 15 samples.

Results

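The genes described here are 10 immediate early genes, most of them encoding parts of the AP-1 transcription factor or factors that act beside it. They are Fos, Fosb, Jun, Junb, Jund, Atf3, Egr1, Ier2, Ier3 and Zfp36, found by gene name among the 14766 genes of the deposited table of mouse lung, and each name matched 1 gene. The lungs came from wild type mice in 3 groups of 5 biological replicates, all of batch 1, and 1 RNA-seq library was made from each lung. OVA_Rg3 mice received ovalbumin (OVA, an egg white protein used to provoke allergic airway inflammation) by intraperitoneal injection and as an inhaled aerosol, and were given ginsenoside Rg3, a ginseng saponin, at 20 mg/kg by gavage. OVA mice received ovalbumin by the same routes and no Rg3, and control mice received saline alone. The strain, sex and age of the mice and the timing of lung collection were not given in the sources used here. The comparisons ask how lungs of OVA mice differed from control lungs, and how lungs of OVA_Rg3 mice differed from those of OVA and control mice.

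Immediate early genes are transcribed within minutes of a stimulus, without new protein being made first, and their short-lived messages are removed quickly. Proteins of the Fos, Jun and ATF families pair through leucine zippers and bind AP-1 and related DNA elements, so the relative amounts of the family members set which pairs can form. In lung, AP-1 activity is known from epithelial injury, from macrophage activation and from the transcription of cytokine genes.

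The values are FPKM-like, that is, scaled to transcript length and to the reads of the library. Mitochondrially encoded transcripts took 41.6% to 70.4% of the summed value in OVA_Rg3 lungs and 46.2% to 79.8% in OVA lungs, against 18.9% to 29.3% in control lungs. The values of most other genes were lower in OVA lungs, and the median log2 change of all 12137 genes tested was -0.73 in OVA against control. The main results are given on the deposited values and after median-ratio scaling, which divides each library by 1 factor and brought that median to -0.02. The steps between low values implied 0.223 M reads in OVA_Rg3 library 1 and 0.854 M in control library 2, against 2.42 to 15.1 M in the other libraries. Liver markers summed to 1399 in OVA_Rg3 library 1, 363 in control library 2 and 181 in OVA library 4, against at most 68.0 in any other library. Skeletal muscle markers were at 790, 210 and 116 in the same libraries, so the calls are also given without these 3. The lung epithelium markers, Sftpc and Scgb1a1 among them, summed to 24567 to 43910 in OVA_Rg3 lungs and 12352 to 68950 in OVA lungs, against 66180 to 204836 in control lungs. Most of this sum was Scgb1a1, so it says little of the other markers in the list. Scgb1a1 alone took 4.07% to 7.99% of all summed values in OVA_Rg3 lungs and 2.03% to 12.6% in OVA lungs. In control lungs it took 14.7% to 35.6%. Ciliated cell markers summed to 71.2 to 237 in OVA_Rg3 lungs and 59.9 to 200 in OVA lungs, against 432 to 773 in control lungs. Summed macrophage markers ranged from 160 to 1304 in OVA_Rg3 lungs, from 123 to 1663 in OVA lungs and from 39.3 to 76.8 in control lungs. Smooth muscle markers ranged from 106 to 243 in OVA_Rg3 lungs, from 50.2 to 105 in OVA lungs and from 394 to 615 in control lungs. These are bulk values, in which fewer cells of a type and less RNA per cell cannot be told apart. The part of depth, mitochondrial share and cell makeup in the results below was not tested.

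Jun and Atf3 are the 2 genes whose scaled values separated OVA from control lungs, and the promoters of both are shown beside those of Fos and Junb, whose scaled values did not. Each sequence is the 250 bases before the RefSeq start of the gene in GRCm38.p6, 5′ to 3′ on the strand of the gene, at chr4:95052223-95052472 for Jun (minus strand), chr1:191183334-191183583 for Atf3 (minus strand), chr12:85473640-85473889 for Fos (plus strand) and chr8:84978749-84978998 for Junb (minus strand). Capitals mark matches to the motifs searched on both strands.
Jun: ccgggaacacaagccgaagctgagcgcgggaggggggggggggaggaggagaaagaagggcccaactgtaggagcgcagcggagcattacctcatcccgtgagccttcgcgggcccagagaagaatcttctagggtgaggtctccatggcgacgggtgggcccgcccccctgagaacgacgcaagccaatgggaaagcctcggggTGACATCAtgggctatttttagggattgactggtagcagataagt
Atf3: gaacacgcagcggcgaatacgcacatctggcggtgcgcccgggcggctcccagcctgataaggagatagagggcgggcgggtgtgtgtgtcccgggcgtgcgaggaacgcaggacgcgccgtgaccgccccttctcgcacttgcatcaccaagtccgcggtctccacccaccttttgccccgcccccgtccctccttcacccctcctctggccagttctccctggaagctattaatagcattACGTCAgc
Fos: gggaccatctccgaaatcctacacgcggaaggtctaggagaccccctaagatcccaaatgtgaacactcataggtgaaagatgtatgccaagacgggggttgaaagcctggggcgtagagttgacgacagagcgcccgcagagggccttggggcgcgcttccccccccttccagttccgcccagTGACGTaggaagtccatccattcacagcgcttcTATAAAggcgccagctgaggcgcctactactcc
Junb: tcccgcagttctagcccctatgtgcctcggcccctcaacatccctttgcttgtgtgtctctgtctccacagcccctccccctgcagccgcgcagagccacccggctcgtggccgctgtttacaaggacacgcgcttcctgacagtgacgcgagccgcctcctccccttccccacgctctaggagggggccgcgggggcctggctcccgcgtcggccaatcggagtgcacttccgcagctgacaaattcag
The Jun promoter held TGACATCA, a match to the ATF and AP-1 element TGACNTCA, 45 to 38 bases before the start. Atf3 held ACGTCA, which is TGACGT on the opposite strand, 8 to 3 bases before its start. TGACGT is the core of the cAMP response element, which ATF and CREB proteins bind, and Fos carried it 66 to 61 bases before the start, with a TATAAA box at 33 to 28 bases. Junb held no match to either element, to the AP-1 element TGANTCA, to TATAAA or to the CArG box of serum response factor. Of all 32851 promoters of this length in the table, 7.49% held TGACNTCA, 6.47% TGACGT, 6.75% TGANTCA, 12.4% TATAAA and 1.47% the CArG box. TGACNTCA overlaps TGACGT where N is G. Among the 8 genes of the group whose promoters were searched, TGACGT was found in 2, TGACNTCA in 1, TATAAA in 1, the CArG box in 1 (Zfp36) and TGANTCA in 0. A match describes these letters only.

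Per length, Jund had the highest mean of the 10 genes in all 3 groups and Fosb the lowest. In OVA_Rg3 lungs the order of the means was Jund, Ier3, Jun, Ier2, Zfp36, Junb, Fos, Egr1, Atf3 and Fosb. Neighbours in that order overlapped in their ranges except Atf3 and Fosb. In OVA lungs Atf3 stood sixth, and the order was Jund, Jun, Ier2, Ier3, Zfp36, Atf3, Junb, Fos, Egr1 and Fosb. Only Junb and Fos, and Egr1 and Fosb, did not overlap as neighbours there. In control lungs the order was Jund, Ier3, Ier2, Zfp36, Junb, Jun, Fos, Egr1, Atf3 and Fosb, and the neighbours Ier2 and Zfp36, Jun and Fos, and Atf3 and Fosb did not overlap. Jun thus ranked 3 in OVA_Rg3 lungs and 2 in OVA lungs, against 6 in control lungs. Atf3 ranked 9 in OVA_Rg3 lungs and 6 in OVA lungs, against 9 in control lungs.

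**Figure D1:**
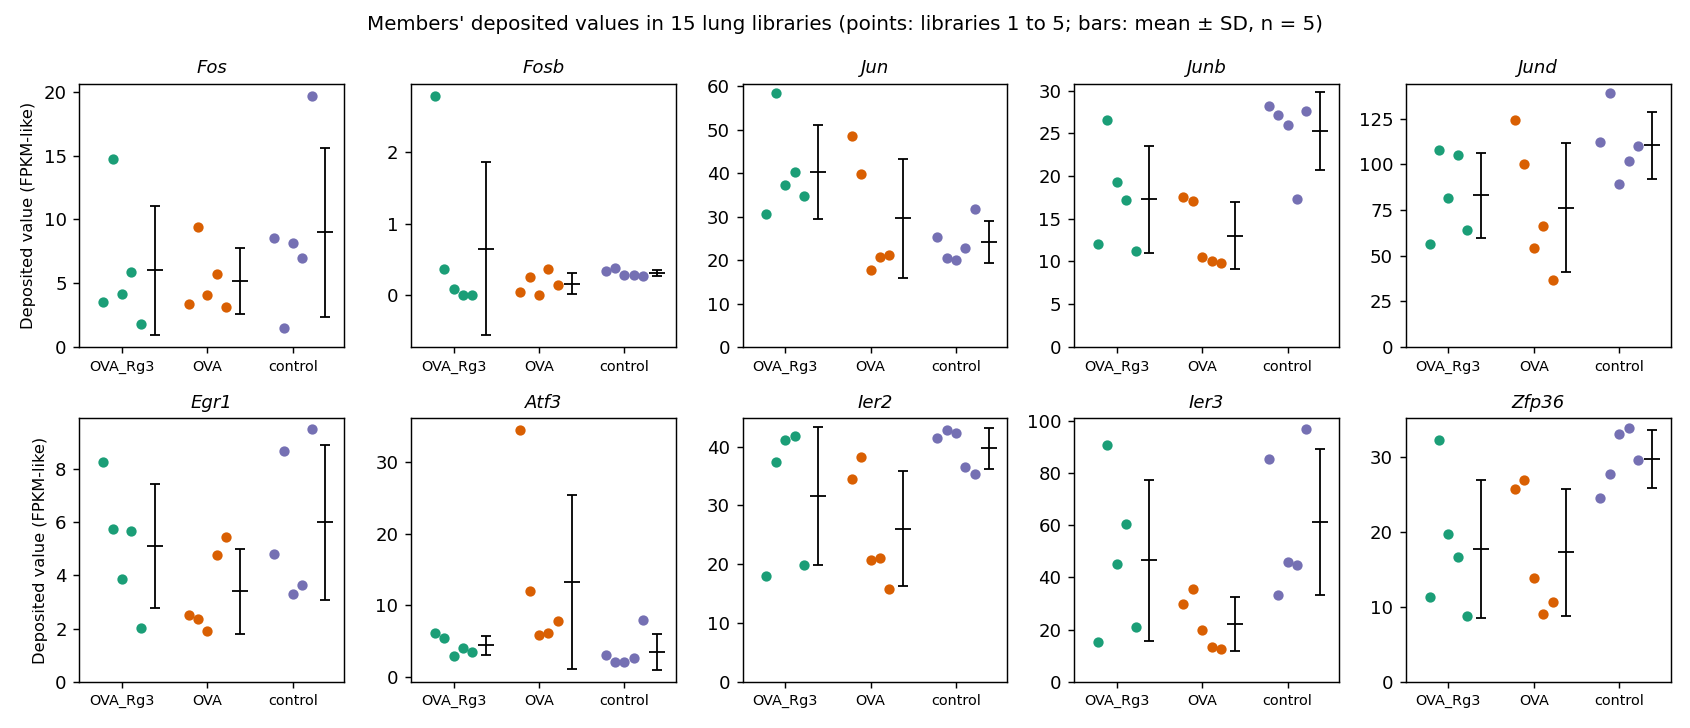
Deposited FPKM-like value (y axis) of each of the 10 genes in OVA_Rg3, OVA and control lungs (x axis); points are libraries 1 to 5 in order, bars are mean ± SD (n = 5). Atf3 in OVA library 1 (34.5) and Fosb in OVA_Rg3 library 1 (2.79) stand far above the other libraries of their groups.

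Fos, the founding Fos family protein, had values of 3.49, 14.7, 4.13, 5.86 and 1.81 FPKM in OVA_Rg3 lungs 1 to 5, 3.37, 9.39, 4.05, 5.67 and 3.14 in OVA lungs and 8.52, 1.47, 8.17, 6.96 and 19.7 in control lungs. Library 5 of the control group was highest and library 2 lowest, and all groups overlapped. The value in OVA_Rg3 library 1 rested on 1.64 and that in control library 2 on 2.64 read equivalents on the longest transcript, under the floor of 3 reads. The log2 change of Fos in OVA against control was -0.50 ± 0.50 (SE; limma adjusted p = 0.394) on deposited values and 0.33 ± 0.43 (adjusted p = 0.667) after scaling. In OVA_Rg3 against OVA it was 0.03 ± 0.50 (limma adjusted p = 0.980) on deposited values and -0.41 ± 0.43 (adjusted p = 0.794) after scaling. Without the 3 libraries with liver and muscle markers, which include control library 2, the deposited change in OVA against control was -0.98 ± 0.48 (limma adjusted p = 0.0902). After scaling it was -0.15 ± 0.40 without them (limma adjusted p = 0.817), opposite in sign to the scaled 0.33 with all libraries. No difference in Fos passed the test in these fits. With array weights on deposited values the change in OVA against control did (-0.82 ± 0.36, limma adjusted p = 0.0439). So did that in OVA_Rg3 against control (-0.79 ± 0.30, limma adjusted p = 0.0297). Those weights called 82.6% of all genes in OVA against control and 60.7% in OVA_Rg3 against control. Fos lies on the plus strand of chromosome 12 (chr12:85473890-85477273 in the table, GRCm38, ENSMUSG00000021250.13).

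Fosb, a second Fos family partner of the Jun proteins, was close to the limit of detection. Its values were 2.79, 0.373, 0.0936, 0 and 0 in OVA_Rg3 lungs, 0.0506, 0.250, 0, 0.373 and 0.146 in OVA lungs and 0.337, 0.377, 0.287, 0.281 and 0.269 in control lungs. In 8 of the 15 libraries the value was below what 3 reads would give, and the 2.79 of OVA_Rg3 library 1 equals 2.35 reads. Fosb is the only one of the 10 genes that did not pass the filter on low values, so it is not among the 9 tested genes. In the fit with no filter its log2 change on deposited values was -0.18 ± 0.29 (SE; limma adjusted p = 0.637) in OVA against control, 0.29 ± 0.29 (adjusted p = 0.619) in OVA_Rg3 against OVA and 0.11 ± 0.29 (adjusted p = 0.813) in OVA_Rg3 against control. It lies on the minus strand at chr7:19302696-19310051 (ENSMUSG00000003545.3).

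Jun, the main partner of Fos in AP-1, was the Jun family member that differed between groups after scaling. Its deposited values were 30.5, 58.5, 37.4, 40.3 and 34.7 in OVA_Rg3 lungs, 48.6, 39.8, 17.8, 20.7 and 21.1 in OVA lungs and 25.4, 20.5, 20.0, 22.8 and 31.8 in control lungs. On this scale OVA libraries 1 and 2 lay above all control libraries and OVA libraries 3 to 5 lay within or below them, so the groups overlapped. The log2 change in OVA against control was 0.19 ± 0.28 (SE; limma adjusted p = 0.559) on deposited values. After scaling, Jun was at 29.6, 43.2, 36.0, 37.8 and 47.7 in OVA_Rg3 lungs, 42.2, 38.7, 30.3, 36.3 and 40.3 in OVA lungs and 16.7, 17.3, 13.7, 15.1 and 20.7 in control lungs. Every OVA_Rg3 and every OVA library then lay above every control library, and the OVA_Rg3 and OVA libraries overlapped. Scaled Jun was 2.18-fold higher in OVA than in control lungs on the log2(value + 1) scale (log2 change 1.13 ± 0.16, limma adjusted p = 8.89e-04). In OVA_Rg3 against control the scaled change was 1.17 ± 0.16 (limma adjusted p = 0.00261), against 0.70 ± 0.28 (adjusted p = 0.0897) on deposited values. Between OVA_Rg3 and OVA lungs the change was 0.51 ± 0.28 (limma adjusted p = 0.384) on deposited values and 0.04 ± 0.16 (adjusted p = 0.954) after scaling. Without the 3 libraries with liver and muscle markers, the scaled changes were 1.15 ± 0.17 (limma adjusted p = 0.00151) in OVA against control and 1.27 ± 0.17 (adjusted p = 0.00210) in OVA_Rg3 against control. Jun is a gene without introns in the annotation's single transcript, at chr4:95049034-95052222 on the minus strand (ENSMUSG00000052684.4).

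Junb, a Jun family protein that often opposes Jun at AP-1 sites, had values of 12.0, 26.6, 19.3, 17.2 and 11.2 in OVA_Rg3 lungs, 17.5, 17.1, 10.5, 10.1 and 9.88 in OVA lungs and 28.2, 27.2, 26.0, 17.3 and 27.6 in control lungs. Only control library 4 reached down to the OVA range, by a small margin. On deposited values Junb fell by 0.93 ± 0.27 on the log2 scale in OVA against control (limma adjusted p = 0.0100). After scaling the change was -0.01 ± 0.18 (limma adjusted p = 0.981), with scaled means of 17.3 ± 1.42 in OVA lungs and 17.8 ± 4.11 in control lungs (SD, n = 5 each). The median change of all genes on the deposited scale was -0.73. In OVA_Rg3 against OVA the change was 0.36 ± 0.27 (limma adjusted p = 0.482) on deposited values and -0.10 ± 0.18 (adjusted p = 0.889) after scaling. Junb lies at chr8:84974484-84978718 on the minus strand (ENSMUSG00000052837.6).

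Jund, the Jun family member that most cells make without stimulation, was the most abundant of the 10 genes, at 56.6 to 108 in OVA_Rg3 lungs, 36.4 to 124 in OVA lungs and 89.3 to 139 in control lungs. The ranges overlapped in each comparison. Its log2 change in OVA against control was -0.64 ± 0.29 (SE; limma adjusted p = 0.0729) on deposited values and 0.32 ± 0.21 (adjusted p = 0.341) after scaling. Jund occupies chr8:70698949-70700616 on the plus strand in a single annotated transcript (ENSMUSG00000071076.6).

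**Figure D2:**
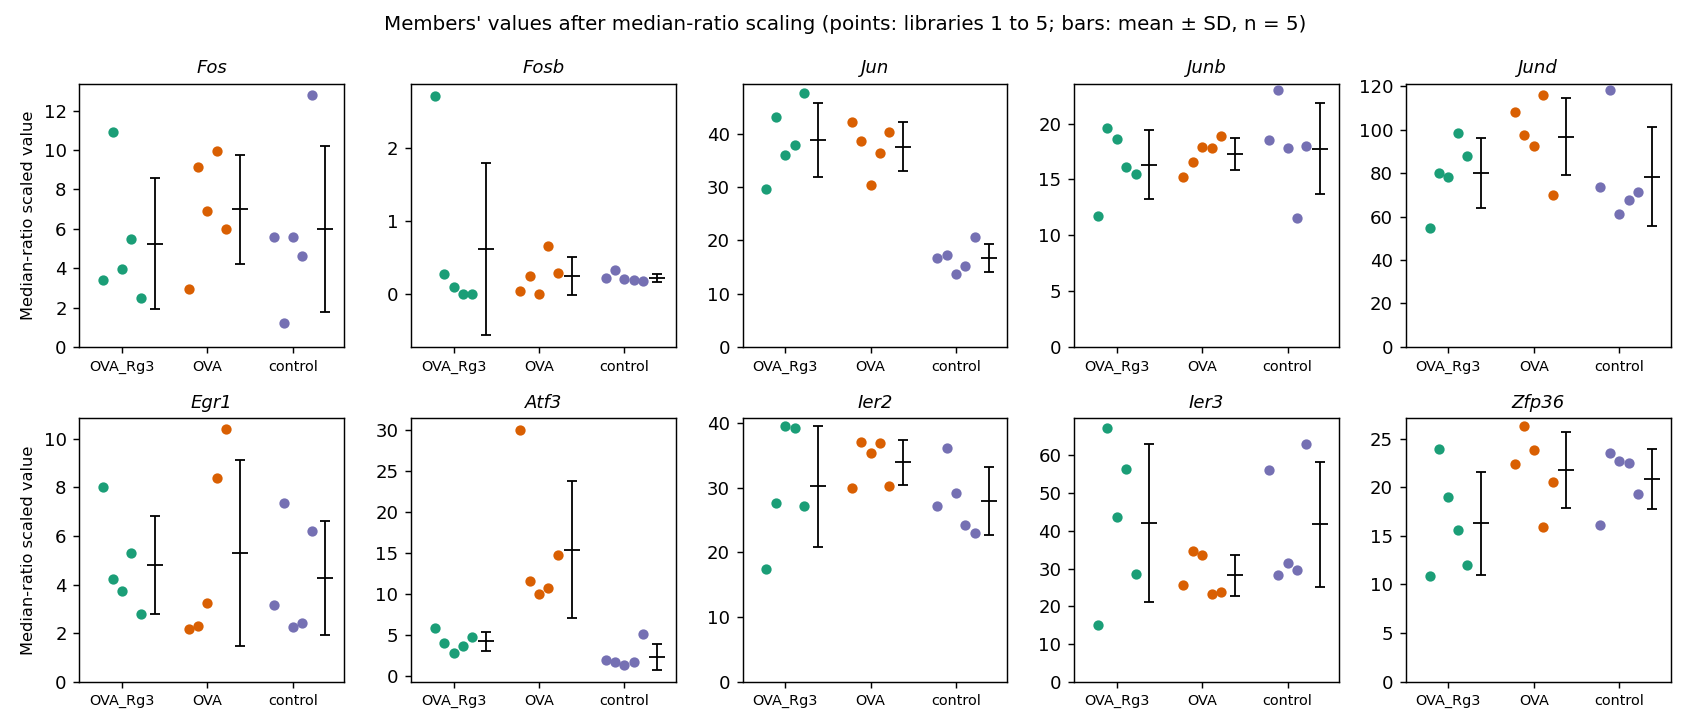
Values of the 10 genes after median-ratio scaling (y axis) in OVA_Rg3, OVA and control lungs (x axis); points are libraries 1 to 5 in order, bars are mean ± SD (n = 5). Jun averages 38.9 in OVA_Rg3 and 37.6 in OVA against 16.7 in control lungs, and Atf3 averages 15.4 in OVA lungs against 2.39 in control lungs.

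Atf3, a stress-induced factor that pairs with Jun proteins and is known in macrophages as a brake on inflammatory genes, differed from control on both scales in OVA lungs. Its deposited values were 6.06, 5.48, 2.96, 3.96 and 3.44 in OVA_Rg3 lungs, 34.5, 12.0, 5.84, 6.12 and 7.74 in OVA lungs and 3.00, 2.00, 2.00, 2.55 and 7.97 in control lungs. OVA libraries 1 and 2 were high, and control library 5 alone reached into the OVA range. Atf3 was 2.79-fold higher in OVA than in control lungs on the log2(value + 1) scale (log2 change 1.48 ± 0.41, SE, limma adjusted p = 0.00857). After scaling it was at 5.88, 4.06, 2.85, 3.72 and 4.74 in OVA_Rg3 lungs, 29.9, 11.6, 9.96, 10.7 and 14.8 in OVA lungs and 1.97, 1.70, 1.37, 1.70 and 5.19 in control lungs. No OVA library then overlapped with any OVA_Rg3 or control library. The scaled change in OVA against control was 2.26 ± 0.30 (limma adjusted p = 7.01e-04), a 4.78-fold difference. Without OVA library 1 it was 2.00 ± 0.26 (limma adjusted p = 0.00154), and without control library 5 it was 2.50 ± 0.27 (adjusted p = 2.54e-04).

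Between OVA_Rg3 and OVA lungs, Atf3 had the lowest adjusted p of the 9 tested genes and did not pass the threshold. The log2 change was -1.12 ± 0.41 (SE; limma adjusted p = 0.308) on deposited values and -1.56 ± 0.30 (adjusted p = 0.150) after scaling. The scaled values of all 5 OVA_Rg3 lungs were below those of all 5 OVA lungs, and the scaled means were 4.25 ± 1.14 in OVA_Rg3 lungs and 15.4 ± 8.31 in OVA lungs (SD, n = 5 each). The deposited change without OVA library 1, the highest, was -0.71 ± 0.33 (limma adjusted p = 0.193). Without the 3 libraries with liver and muscle markers it was -1.40 ± 0.46 (limma adjusted p = 0.294) and -1.75 ± 0.34 (adjusted p = 0.123) after scaling. In OVA_Rg3 against control, Atf3 changed by 0.36 ± 0.41 (limma adjusted p = 0.538) on deposited values and 0.70 ± 0.30 (adjusted p = 0.166) after scaling. The value of Atf3 in OVA_Rg3 library 1 rested on 2.68 read equivalents, under the floor of 3 reads. OVA library 1, the highest in Atf3, also had the highest sum of macrophage markers (1663). OVA_Rg3 library 2 had the next highest macrophage sum (1304) with an Atf3 value of 5.48, and OVA library 2 had 791 with 12.0. Of the macrophage markers, Marco was at 0 in all 5 OVA libraries. The part of macrophage RNA in the values of Atf3 was not tested. Atf3 spans chr1:191170296-191218039 on the minus strand (ENSMUSG00000026628.13).

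Egr1, a zinc finger factor induced through serum response factor, ranged from 2.01 to 8.26 in OVA_Rg3 lungs, from 1.91 to 5.44 in OVA lungs and from 3.29 to 9.52 in control lungs. All groups overlapped. Its change in OVA against control was -0.64 ± 0.35 (SE; limma adjusted p = 0.125) on deposited values and 0.16 ± 0.39 (adjusted p = 0.842) after scaling. In OVA_Rg3 against OVA it was 0.45 ± 0.35 (limma adjusted p = 0.496) on deposited values and 0.03 ± 0.39 (adjusted p = 0.989) after scaling. Egr1 is on chromosome 18 (ENSMUSG00000038418.7).

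Ier2, a nuclear protein induced by growth factors, ranged from 17.9 to 41.8 in OVA_Rg3 lungs, from 15.7 to 38.2 in OVA lungs and from 35.4 to 42.8 in control lungs. Only OVA library 2 reached the control range. The log2 change in OVA against control was -0.66 ± 0.29 (SE; limma adjusted p = 0.0621) on deposited values and 0.28 ± 0.21 (adjusted p = 0.409) after scaling. Ier2 lies at chr8:84661331-84662852 on the minus strand (ENSMUSG00000053560.4).

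Ier3, which protects cells from apoptosis and is induced through NF-kappaB, varied widely within each group. Its values were 15.4, 90.9, 45.3, 60.3 and 20.8 in OVA_Rg3 lungs, 29.6, 35.6, 19.7, 13.2 and 12.4 in OVA lungs and 85.3, 33.4, 45.8, 44.7 and 96.7 in control lungs. OVA library 2 and control library 2 crossed, and the OVA_Rg3 lungs ran across both ranges. On deposited values Ier3 fell by 1.43 ± 0.45 on the log2 scale in OVA against control (limma adjusted p = 0.0156). After scaling the change was -0.49 ± 0.35 (limma adjusted p = 0.395). In OVA_Rg3 against OVA it was 0.88 ± 0.45 (limma adjusted p = 0.358) on deposited values and 0.41 (adjusted p = 0.745) after scaling. The gene is at chr17:35821684-35822923 on the plus strand (ENSMUSG00000003541.6).

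Zfp36, or tristetraprolin, binds AU-rich elements in cytokine messages and speeds their decay. Its values were 11.3, 32.3, 19.7, 16.6 and 8.73 in OVA_Rg3 lungs, 25.8, 27.0, 13.9, 9.04 and 10.7 in OVA lungs and 24.5, 27.8, 33.1, 33.9 and 29.6 in control lungs. OVA libraries 1 and 2 lay within the control range and the other 3 below it. On deposited values Zfp36 fell by 0.87 ± 0.34 on the log2 scale in OVA against control (limma adjusted p = 0.0425), and after scaling the sign turned, at 0.06 ± 0.21 (adjusted p = 0.898). Without the 3 libraries with liver and muscle markers the deposited change was -0.70 ± 0.36 (limma adjusted p = 0.108). In OVA_Rg3 against control the change was -0.84 ± 0.34 (limma adjusted p = 0.0942) on deposited values and -0.38 ± 0.21 (adjusted p = 0.279) after scaling. Without OVA_Rg3 library 2 the deposited change was -1.08 ± 0.33 (limma adjusted p = 0.0311). Of the 15 fits that each left out 1 library this was the 1 with a call on deposited values, and after scaling 0 of 15 gave one (-0.52 to -0.26, lowest adjusted p = 0.129). Zfp36 lies at chr7:28376784-28380253 on the minus strand (ENSMUSG00000044786.6).

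Counted together, 4 of the 9 tested genes passed in OVA against control on deposited values, beside 51.8% of all genes tested. Atf3 was the 1 higher gene, where 0.577% of all genes were higher, and Junb, Ier3 and Zfp36 were the 3 lower ones, where 51.2% were lower. The median of the 9 genes was -0.64, against -0.73 over all genes. On deposited values 0 of the 9 genes had groups without overlap, where 0.280% of all genes were higher and 32.1% lower without overlap. After scaling 2 of 9 passed (Jun and Atf3, both higher), where 14.8% of all genes did, 6.34% higher and 8.43% lower, and the medians were 0.28 for the 9 genes and -0.02 for all genes. The same 2 genes had OVA libraries that all lay above the control libraries after scaling, where 7.00% of all genes did and 9.24% lay below.

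In OVA_Rg3 against OVA, 0 of 9 genes passed on either scale, and limma called 0% of all genes. At an unadjusted p under 0.05, limma counted 1 of the 9 genes on each scale (Atf3), and 1756 of all genes on deposited and 1059 on scaled values. On deposited values 0 of the 9 genes had groups without overlap, where 2.10% of all genes were higher and 0.00824% lower without overlap. Atf3 was the 1 gene whose scaled OVA_Rg3 values all lay below the OVA values, where 0.923% of all genes did and 0.346% lay above. When libraries were weighted by quality, limma called 6 of the 9 genes higher (Jun, Junb, Jund, Ier2, Ier3 and Zfp36) and Atf3 lower, but called 57.5% of all genes on those weights. In OVA_Rg3 against control, 0 of 9 passed on deposited values, where 16.6% of all genes did (0.774% higher, 15.8% lower), and 1 of 9 (Jun, higher) after scaling, where 7.78% did (2.99% higher, 4.79% lower). Jun was also the 1 gene of the 9 with no overlap between scaled OVA_Rg3 and control values, where 3.79% of all genes were higher and 7.53% lower without overlap. On deposited values 0 of the 9 genes had groups without overlap in this comparison, against 0.552% of all genes higher and 18.5% lower. These comparisons share the OVA or the control libraries and are not independent of each other.

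**Figure D3:**
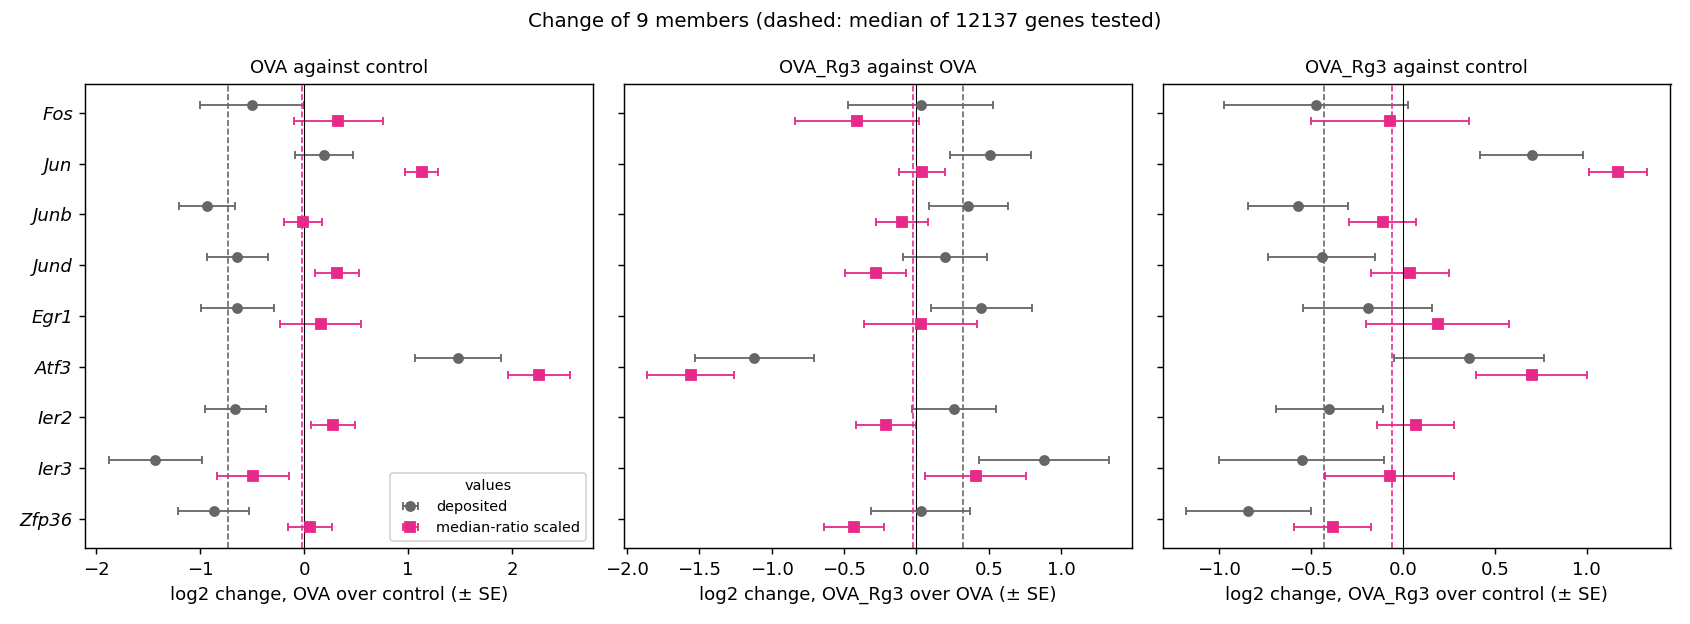
Log2 change ± SE (x axis) of the 9 tested genes (y axis) in the 3 comparisons, on deposited values (grey circles) and after median-ratio scaling (pink squares); dashed lines mark the median of all 12137 genes tested. In OVA against control, Atf3 (1.48 and 2.26) and Jun (0.19 and 1.13) lie furthest right of the dashed lines of both scales. Fos, Jund, Egr1 and Ier2 also lie right of both lines, by smaller distances.

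Ratios between members within 1 library do not depend on how that library was scaled. They were chosen after the values were seen and are given as a description. Jun over Junb was 2.54, 2.20, 1.94, 2.35 and 3.09 in OVA_Rg3 lungs, 2.78, 2.33, 1.69, 2.04 and 2.13 in OVA lungs and 0.901, 0.753, 0.769, 1.31 and 1.15 in control lungs. Each OVA_Rg3 and each OVA lung thus held more Jun than Junb per length, while 3 of the 5 control lungs held less. A ratio to Junb that was higher in OVA than in control lungs without overlap was seen for 4.63% of the 10245 other genes above 0 in every library. In OVA_Rg3 against control the share was 3.47%. Jun over Jund was 0.539, 0.541, 0.459, 0.384 and 0.542 in OVA_Rg3 lungs, 0.391, 0.397, 0.327, 0.312 and 0.579 in OVA lungs and 0.227, 0.147, 0.224, 0.223 and 0.289 in control lungs. Control lungs lay below both other groups, and 1.68% of the other genes had a ratio to Jund that was higher without overlap in OVA than in control lungs, and 2.90% in OVA_Rg3 than in control lungs. Junb over Jund overlapped in all comparisons, at 0.164 to 0.246 in OVA_Rg3 lungs, 0.141 to 0.272 in OVA lungs and 0.170 to 0.291 in control lungs.

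Jun over Atf3 separated OVA lungs from both other groups. It was 5.03, 10.7, 12.6, 10.2 and 10.1 in OVA_Rg3 lungs, 1.41, 3.33, 3.04, 3.38 and 2.72 in OVA lungs and 8.44, 10.2, 9.98, 8.92 and 3.98 in control lungs. The control lung nearest to the OVA range was library 5, which had the highest control value of Atf3. Of the 36 ratios between the 9 genes above 0 in all libraries, 11 did not overlap between OVA and control lungs. In 7 of these Atf3 was the relatively higher gene, against each of the others but Fos, and in 4 Jun was, against Junb, Jund, Ier3 and Zfp36. Of the 10245 other genes above 0 in every library, 79.1% had a ratio to Atf3 that was lower without overlap in OVA than in control lungs, so the share of members under Atf3 (7 of 8) lay near that of other genes. Between OVA_Rg3 and OVA lungs 2 of the 36 did not overlap, Jun over Atf3 and Junb over Atf3, both higher in OVA_Rg3 lungs. Of the other genes, 55.3% had a higher ratio to Atf3 without overlap. The lowest OVA_Rg3 values of both ratios, 5.03 and 1.98, were those of library 1, against OVA values of at most 3.38 and 1.80. In that OVA_Rg3 library Atf3 rested on 2.68 read equivalents, under the floor of 3 reads, and Junb on 4.85. Whether these gaps exceed counting error was not tested. Between OVA_Rg3 and control lungs 5 did not overlap, all with Jun the relatively higher gene (against Junb, Jund, Ier2, Ier3 and Zfp36). How many of the other genes had a ratio to Jun that was lower without overlap was not counted in either comparison with control lungs. The 4 and 5 ratios with Jun higher are therefore descriptions only.

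**Figure D4:**
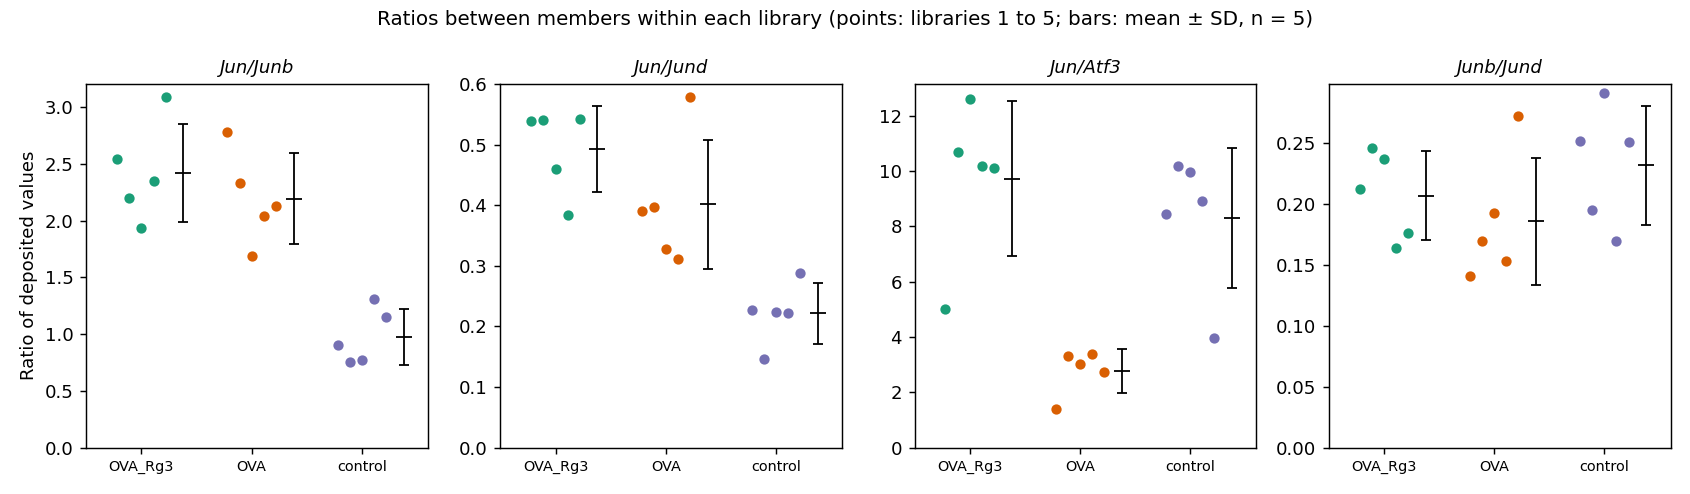
Ratio of deposited values within each library (y axis) for Jun over Junb, Jun over Jund, Jun over Atf3 and Junb over Jund in OVA_Rg3, OVA and control lungs (x axis); points are libraries 1 to 5 in order, bars are mean ± SD (n = 5). Jun over Junb runs from 1.94 to 3.09 in OVA_Rg3 and 1.69 to 2.78 in OVA lungs and from 0.753 to 1.31 in control lungs, while Junb over Jund overlaps throughout.

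Other genes of the same response were counted in 5 lists. Beside all genes, at -0.73 on deposited values and -0.02 after scaling, the medians of the lists in OVA against control ran from -0.68 to -0.48 on deposited values and from 0.06 to 0.29 after scaling. Of the other AP-1 family bZIP genes, 13 were counted and 10 tested. After scaling 1 was higher in OVA than in control lungs. The small Maf protein Mafk averaged 14.0 ± 2.52 in OVA lungs and 7.47 ± 2.37 in control lungs (SD, n = 5 each, scaled; log2 change 0.87 ± 0.25, limma adjusted p = 0.0321). Over all genes 6.34% were higher and 8.43% lower on that scale. On the deposited values Mafk changed by -0.02 ± 0.32 (limma adjusted p = 0.969). Also on deposited values, 0 of the 10 were higher and 2 lower (Maf and Fosl2), where 51.2% of all genes were lower. Fosl2 changed by -1.24 (limma adjusted p = 0.0217) on deposited values and -0.54 ± 0.37 (adjusted p = 0.365) after scaling. Maf changed by -0.96 (limma adjusted p = 0.00432) on deposited values and -0.10 ± 0.17 (adjusted p = 0.749) after scaling.

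Of 12 other immediate early transcription factors tested, 2 were higher in OVA lungs after scaling, where 6.34% of all genes were. Egr2, a close relative of Egr1, averaged 3.68 ± 2.44 in OVA lungs and 0.657 ± 0.511 in control lungs (SD, n = 5 each, scaled; log2 change 1.43 ± 0.35, limma adjusted p = 0.0148). Klf2, a factor of quiescent endothelium, changed by 0.95 ± 0.28 (limma adjusted p = 0.0318). On deposited values Egr2 changed by 0.93 ± 0.42 (limma adjusted p = 0.0719) and Klf2 by -0.01 ± 0.40 (adjusted p = 0.983). On that scale 4 of the 12 were lower and 0 higher, a share of lower genes under the 51.2% of all genes. The lower ones were the orphan nuclear receptors Nr4a1 and Nr4a2, the Notch target Hes1 and Ier5. Nr4a2 averaged 1.30 ± 0.849 in OVA lungs and 6.06 ± 2.27 in control lungs on deposited values (SD, n = 5 each; log2 change -1.63, limma adjusted p = 0.00272). Its scaled change was -0.98 ± 0.35 (limma adjusted p = 0.0713). The groups did not overlap after scaling, where 9.24% of all genes were lower without overlap.

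Among 24 tested feedback inhibitors and effectors of the early response, 3 were higher in OVA lungs after scaling and 0 lower, and on deposited values 0 were higher and 7 lower. Over all genes 6.34% were higher and 8.43% lower after scaling, and 0.577% higher and 51.2% lower on deposited values, so 7 of 24 is under that share. The 3 were Rhob, a small GTPase (log2 change 0.91 ± 0.19, limma adjusted p = 0.00652), Sgk1, a kinase of the glucocorticoid response (1.23 ± 0.27, adjusted p = 0.00807), and Ppp1r15a (1.14 ± 0.26, adjusted p = 0.0105), which restores translation after stress. None of the 3 passed on deposited values, with changes of -0.04 ± 0.33 for Rhob, 0.36 ± 0.42 for Sgk1 and 0.30 ± 0.35 for Ppp1r15a (limma adjusted p of 0.461 or more). Of 17 upstream factors, 1 was higher after scaling, the ternary complex factor Elk4 (0.77 ± 0.22, limma adjusted p = 0.0297), and 4 were lower on deposited values. These counts lie near the 6.34% of all genes that were higher after scaling and under the 51.2% that were lower on deposited values. Serum response factor, Srf, was one of those 4, with a deposited change of -1.11 ± 0.23 (limma adjusted p = 0.00149) and a scaled change of -0.27 ± 0.16 (adjusted p = 0.297).

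Of the AU-rich messages that Zfp36 protein is known to bind in mouse, 9 were found and 5 tested. The chemokine Ccl3 averaged 3.67 ± 2.23 in OVA lungs and 0.751 ± 0.968 in control lungs on deposited values (SD, n = 5 each; log2 change 1.43 ± 0.42, limma adjusted p = 0.0117) and changed by 1.93 ± 0.36 (adjusted p = 0.00356) after scaling. Ptgs2, the inducible cyclooxygenase, averaged 2.39 ± 1.39 in OVA lungs and 9.01 ± 1.53 in control lungs (deposited; log2 change -1.66 ± 0.36, limma adjusted p = 0.00204) and changed by -0.92 ± 0.29 (adjusted p = 0.0418) after scaling. The other 3 tested targets did not pass on either scale, so 1 of 5 was higher and 1 of 5 lower. Over all genes 0.577% were higher and 51.2% lower on deposited values, and 6.34% higher and 8.43% lower after scaling.

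**Figure D5:**
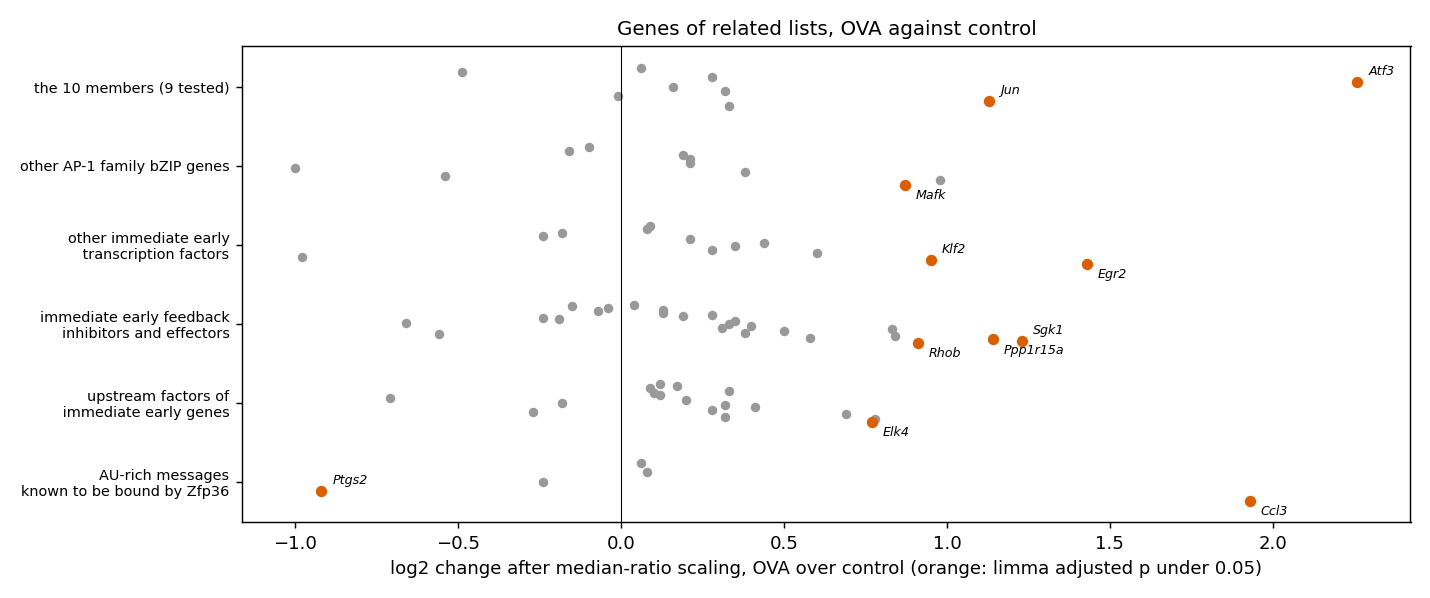
Log2 change in OVA against control after median-ratio scaling (x axis) for the 9 tested members and for the tested genes of the 5 lists (y axis, 1 point a gene); orange points passed a limma adjusted p of 0.05. The named orange points are higher in OVA lungs except Ptgs2 (-0.92).

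In OVA_Rg3 against OVA, 0 genes of the 5 lists passed on either scale. The lowest adjusted p on deposited values was that of Mapk14, the p38 alpha kinase, which averaged 6.52 ± 0.812 in OVA_Rg3 lungs and 1.29 ± 1.09 in OVA lungs on deposited values (SD, n = 5 each; log2 change 1.81 ± 0.35, limma adjusted p = 0.143), and whose scaled change was 1.49 ± 0.38 (adjusted p = 0.297). Against control lungs, at 2.30 ± 1.63, Mapk14 was higher in OVA_Rg3 lungs on deposited values (log2 change 1.35 ± 0.35, limma adjusted p = 0.0144) and after scaling (1.61 ± 0.38, adjusted p = 0.0242). It was the 1 list gene that passed after scaling in OVA_Rg3 against control, where 7.78% of all genes did, 2.99% of them higher. Over all genes 0.774% were higher on deposited values. On deposited values 6 list genes were lower in that comparison, where 15.8% of all genes were, among them Maf (log2 change -0.87, limma adjusted p = 0.0195), Nr4a2 (-1.50, adjusted p = 0.0121) and Hes1 (-1.31, adjusted p = 0.0252). After scaling 0 list genes were lower, and the changes were -0.43 ± 0.17 for Maf (limma adjusted p = 0.125), -1.08 ± 0.35 for Nr4a2 (adjusted p = 0.0693) and -0.82 ± 0.39 for Hes1 (adjusted p = 0.209).

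Genes that varied with Fos and with Atf3 from lung to lung were ranked by the correlation of deviations from group means in scaled values, over 15 libraries and among 9404 genes. Most like Fos were Farp1 and Cyr61 (0.83 each), Ppfibp2 and Loxl1 (0.82 each) and Slc39a8 (0.81). Most like Atf3 were Irf5 (0.83), Pmaip1 (0.81), Fabp5, Dse and Lilr4b (0.79 each). These points share libraries, depth and cell makeup, and the correlations are descriptions of these lungs.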

How the data were processed

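Lung RNA-seq values of 15 libraries were taken from 1 deposited gene table. The header names no unit. The deposited values were read as FPKM, that is, the authors' reads per gene scaled by length and library. Low values fell near steps that depended on transcript length, with 15.6% to 53.5% within 5% of a whole step. Each library's step was chosen by its fit to these same values. The 10% by chance holds only for a step fixed beforehand, so these shares do not test the unit. TPM, another unit scaled by length, could not be told from FPKM. Depth was read from the steps and is approximate. Per the submitters' processing notes, reads were handled with Trimmomatic and featureCounts (no versions given), and the builds named are GRCm39 and mm39. Start and end were those of GENCODE M21 (GRCm38) for 13545 of the 14766 genes, so positions are given on GRCm38. Read equivalents and floors assume that unit and cover counting error only.

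The 12137 genes that reached 1 in 5 or more libraries were compared on log2(value + 1), which understates changes of low genes, with limma 3.58.1 in R 4.3.3, with 1 mean per group over all 15 libraries, a mean-variance trend and robust estimation. All p-values were adjusted by Benjamini-Hochberg over these genes and called under 0.05. Median-ratio scaling used the 10246 genes above 0 in all libraries. The 10 genes and the lists were chosen with earlier results of these data known. A further AP-1 family gene is not reported here. All 10 are named, with at most 4 genes of smallest p per list and comparison, and the 5 genes most like Fos and Atf3. On simulated data with 200 changed genes among 12137, the fit recovered 29.0% of changes of log2 1 and 78.0% of changes of log2 2, with 6 false calls. Promoters came from a set drawn from RefSeq (GRCm38.p6), and those of 8 of the 10 genes were searched, without Egr1 and Ier2. Figures were drawn with matplotlib 3.10.9 (Python 3.11.15), and summaries with pandas 2.3.3 and numpy 2.4.6. The closing section gives the alternatives: other scalings, filters, pseudocount, library weights, samples in the fit, a replicate block, a minimum change and left-out libraries.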

Additional observations from a re-analysis of the deposited data

Results flagged for a closer look

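In 4 of the 30 groups tested (10 genes in 3 groups of 5 libraries), 1 library stood apart from the other 4 by more of the range than Dixon's 95% criterion allows, where chance gives about 1 in 20, or 1.50 groups. Fosb was at 2.79 in OVA_Rg3 library 1, against 0 to 0.373 in the other OVA_Rg3 libraries, and the value is worth 2.35 reads. Junb was at 17.3 in control library 4, against 26.0 to 28.2 in the other control libraries. Atf3 was at 34.5 in OVA library 1, against 5.84 to 12.0 in the other OVA libraries. Atf3 was also at 7.97 in control library 5, against 2.00 to 3.00 in the other control libraries.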

How the results depend on the processing

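On deposited values 1 of the 9 genes was called higher and 3 lower in OVA against control, 0 in OVA_Rg3 against OVA and 0 in OVA_Rg3 against control. Median-ratio scaling, quantile normalization, rescaling without mitochondrial transcripts and Scgb1a1, and scaling without the 3 libraries with liver and muscle markers each gave 2 higher and 0 lower, 0 in either direction, and 1 higher. On deposited values without those 3 libraries, Atf3 stayed higher in OVA against control (1.54 ± 0.46, limma adjusted p = 0.0135). Junb (-0.82 ± 0.29, limma adjusted p = 0.0279) and Ier3 (-1.46 ± 0.43, adjusted p = 0.0128) stayed lower, and the call of Zfp36 was lost (adjusted p = 0.108). Over all genes that fit called 6694 (55.2%) in OVA against control, 108 higher and 6586 lower. A minimum log2 change of 1 gave 0 calls. Array weights gave 1 higher (Atf3) and 6 lower in OVA against control, 6 higher and 1 lower in OVA_Rg3 against OVA, and 1 higher and 2 lower in OVA_Rg3 against control, and called 10020, 6979 and 7369 of all genes. Fitting only the groups compared gave 1 higher and 4 lower in OVA against control, with Ier2 added (-0.66, limma adjusted p = 0.0423), and 1 higher (Jun) in OVA_Rg3 against control. That setting called 6863 of all genes (56.5%) in OVA against control, 6777 of them lower. In OVA_Rg3 against control it called 2540 of all genes (20.9%), 105 of them higher. Leaving out each library in turn gave 1 higher and 2 to 5 lower in OVA against control (5 without OVA 1 or OVA 2), and 0 to 1 lower in OVA_Rg3 against control (1, Zfp36, without OVA_Rg3 2). Leaving out each library after scaling, and the replicate block after scaling, were chosen after seeing the data. The first gave 2 higher and 0 lower in OVA against control and 1 higher in OVA_Rg3 against control in every fit. Zfp36 turned sign in OVA against control after scaling (0.06), also with the 3 libraries out (0.20), and ranged from -0.03 to 0.16 with each library left out and scaling. Junb turned sign with the 3 libraries out and scaling (0.08) and ranged from -0.15 to 0.09 with each library left out and scaling. The call of Zfp36 on deposited values was lost with no filter (limma adjusted p = 0.0504) and in 9 of 15 fits that left out 1 library. Over all 15 of those fits its change ran from -1.05 to -0.68. Atf3 in OVA against control was called in 15 of 15 on both scales, and Jun after scaling in 15 of 15. Same-numbered libraries deviated together in 1, 3 and 1 of 5 pairs (correlation over 0.1; OVA and control, OVA_Rg3 and OVA, OVA_Rg3 and control), so the numbers were not taken to pair the mice. With the replicate number as a block, 1 gene was higher and 3 lower in OVA against control on deposited values, and 2 higher and 0 lower after scaling, with Zfp36 at 0.06. The block moved the count of all genes called to 5816, against 6286 without it. Over all genes, limma called 6286 in OVA against control, 0 in OVA_Rg3 against OVA and 2016 in OVA_Rg3 against control on deposited values. The scalings called 1762 to 2125 (2574 with the 3 libraries out), 0 to 1 (2 with them out) and 944 to 1126, a pseudocount of 0.1 called 959 in the last comparison, and a minimum log2 change of 1 called 171, 0 and 2. With each library left out, the counts ran from 4410 to 7447, 0 to 3 and 1132 to 2580 on deposited values (1235, 1160 and 1217 in the last comparison without control 1, 3 and 4, and 1132 without OVA_Rg3 5). After scaling they ran from 1057 to 2805 (1193, 1057 and 1083 without control 1, 3 and 4, and 2805 without OVA_Rg3 1), 0 to 1 and 199 to 1170 (355, 199 and 251 without control 1, 3 and 4, and 343 and 358 without OVA_Rg3 2 and 5), so the shares over all genes beside the members' counts move with single libraries. The cause of these differences was not tested. Low depth limits Fosb, Fos in OVA_Rg3 1 and control 2, and Atf3 in OVA_Rg3 1.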

Other observations

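Some genes of the early response had lower or higher values in OVA_Rg3 than in OVA lungs without passing the adjusted test. Plk2, a stress-responsive polo-like kinase, averaged 15.1 ± 3.44 in OVA_Rg3 lungs and 7.27 ± 1.47 in OVA lungs on deposited values, with no overlap (SD, n = 5 each; log2 change 0.95 ± 0.25, limma adjusted p = 0.272), where 2.10% of all genes were higher without overlap. After scaling Plk2 averaged 14.5 ± 2.32 in OVA_Rg3 lungs and 10.1 ± 2.95 in OVA lungs, and the groups overlapped (log2 change 0.51 ± 0.22, limma adjusted p = 0.543). Gadd45a, a growth arrest and DNA damage gene, averaged 5.63 ± 2.01 in OVA_Rg3 lungs and 10.8 ± 1.21 in OVA lungs after scaling, with no overlap (log2 change -0.89 ± 0.22, limma adjusted p = 0.297), where 0.923% of all genes were lower without overlap. On deposited values the groups overlapped in Gadd45a, and the change was -0.46 ± 0.29 (limma adjusted p = 0.422). Ccl3 averaged 0.722 ± 1.13 in OVA_Rg3 lungs and 3.67 ± 2.23 in OVA lungs on deposited values, with overlap (log2 change -1.52 ± 0.42, limma adjusted p = 0.272), and its scaled change was -1.91 ± 0.36 (adjusted p = 0.149).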
